A study of Homo sapiens with 8 samples.

Results

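The genes described here are 10 members of the tumour necrosis factor (TNF) superfamily, 5 ligands (TNFSF18, TNFSF9, TNFSF10, TNFSF15 and CD70) and 5 receptors (TNFRSF10D, TNFRSF11B, TNFRSF12A, TNFRSF21 and TNFRSF1A), out of 14220 genes that had a gene-level feature assigned to 1 symbol. The list was picked from the superfamily with the difference between knockdown and control on these same arrays already known. The members' values are therefore a description and carry no test. RNA came from the breast cancer line MDA-MB-231, an established human line of triple-negative, mesenchymal type, transduced with a lentivirus that carries a short hairpin RNA (shRNA). One group had a control shRNA and the other an shRNA targeting the integrin subunit α3 (ITGA3), both kept in the same medium on plain culture plastic, with 2 samples per group that the study calls biological replicates. Each sample was read on 1 Affymetrix Human Exon 1.0 ST array and summarised once per gene and once per exon, so the 8 samples of the series are 4 arrays. The labels name no rescue of α3 and no other α3 hairpin, and they do not say whether a line was a clone or a pool. Loss of α3 and other differences between the transduced lines therefore cannot be told apart. In these bulk samples, fewer cells that express a gene and less of its RNA per cell cannot be told apart either.

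Ligands of this superfamily are mostly membrane-anchored trimers that can be shed, and they signal by clustering their receptors. Receptors with a cytoplasmic death domain, such as TNFRSF1A and TNFRSF21, can recruit adaptors that lead to caspase activation or to NF-κB, while receptors without one, such as TNFRSF12A, bind TRAF adaptors. A further class, the decoys TNFRSF10D and TNFRSF11B, binds ligand with little or no death signalling. In carcinoma cells the family is best known for TNF-driven inflammatory gene expression and for sensitivity to the death ligand TNFSF10.

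All levels below are linear-scale PLIER intensities, whose precision is limited by having only 4 arrays. ITGA3 itself measured 3480 and 3529 in control cells, against 619 and 644 in α3 knockdown cells. Median intensity over all gene-level features was 177 and 186 in control cells, against 168 and 171 in α3 knockdown cells. Markers of the mesenchymal line were bright, with VIM at 5001 ± 339 in controls and 4441 ± 132 in knockdown (SD, n = 2); of the 6 markers of this type EGFR rose, AXL fell and 4 did not pass. TNFSF18, TNFSF9 and CD70 are also genes of leukocytes or endothelium. Of 13 leukocyte markers 11 were measured and 3 lay above the filter on dim features described below. None of these 3 passed limma's test (0 at an unadjusted p under 0.05), and the defining marker PTPRC measured 27.0 and 27.4 in control cells, against 27.2 and 25.1 in α3 knockdown cells. The summed leukocyte intensity was 985 and 878 in controls and 917 and 944 in knockdown. Of 10 endothelial markers 3 lay above the filter and none of those passed limma's test (1 at an unadjusted p under 0.05), with summed intensities of 1629.5 and 1574 against 1634 and 1655. Of the dim endothelial markers, CDH5 measured 47.9 ± 4.58 and 42.5 ± 2.28, while TIE1 went the other way, at 63.1 ± 1.88 and 86.8 ± 12.6. In the other dim endothelial markers the groups overlapped. Among 4 luminal markers above the filter KRT18 rose from 4520 ± 138 to 5648 ± 257 (adjusted p = 0.0366, limma with Benjamini-Hochberg adjustment). The others above the filter, KRT8, GATA3 and FOXA1, did not pass, and ESR1 and PGR were dim. The part of KRT18 in the results below was not tested. Calls of marker genes were not followed through the alternative fits.

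The 4 members with the largest gene-level differences were TNFSF18, TNFRSF1A, TNFRSF21 and TNFSF15. Their promoters are shown because 2 of these genes were higher and 2 lower in the knockdown arrays. Each run is the 250 bases upstream of the annotated start in RefSeq (GRCh38.p14), read 5′ to 3′ on the minus strand, from chr1:173050942-173051191 for TNFSF18, chr6:47309906-47310155 for TNFRSF21, chr12:6342077-6342326 for TNFRSF1A and chr9:114792531-114792780 for TNFSF15. Capitals mark matches to the motifs named after the sequences.
TNFSF18: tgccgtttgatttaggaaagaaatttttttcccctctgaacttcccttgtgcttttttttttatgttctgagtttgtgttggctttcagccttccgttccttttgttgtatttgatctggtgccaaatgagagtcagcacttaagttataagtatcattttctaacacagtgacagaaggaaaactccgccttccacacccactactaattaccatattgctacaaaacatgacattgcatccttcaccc
TNFRSF21: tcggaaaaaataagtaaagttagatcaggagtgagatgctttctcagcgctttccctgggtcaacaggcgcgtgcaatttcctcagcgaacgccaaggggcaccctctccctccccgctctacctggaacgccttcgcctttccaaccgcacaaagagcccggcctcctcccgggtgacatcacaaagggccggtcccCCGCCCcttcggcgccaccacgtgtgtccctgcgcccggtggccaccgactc
TNFRSF1A: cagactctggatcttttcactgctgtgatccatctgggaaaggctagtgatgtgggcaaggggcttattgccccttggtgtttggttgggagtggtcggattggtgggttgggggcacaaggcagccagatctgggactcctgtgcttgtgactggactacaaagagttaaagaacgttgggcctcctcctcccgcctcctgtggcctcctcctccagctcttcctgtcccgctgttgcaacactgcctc
TNFSF15: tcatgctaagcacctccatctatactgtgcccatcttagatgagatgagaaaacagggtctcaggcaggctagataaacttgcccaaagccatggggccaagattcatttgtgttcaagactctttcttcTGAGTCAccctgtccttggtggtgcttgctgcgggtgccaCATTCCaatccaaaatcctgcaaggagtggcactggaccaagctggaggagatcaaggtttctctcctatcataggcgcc
Promoter windows of 6 of the 10 members were searched. CD70 and TNFRSF12A had no entry in the RefSeq table used, while TNFRSF10D and TNFRSF11B were left out of the search. Both strands were searched for AP-1 (TGANTCA), a STAT site (TTCNNNGAA), the GC box (GGGCGG), the NF-κB consensus, a TATA element (TATAAA) and a TEAD site (GGAATG). Among all 35114 promoter windows of this length these motifs occurred in 6.57%, 6.57%, 42.6%, 5.21%, 10.7% and 11.9%, respectively. The TNFSF18 and TNFRSF1A windows held none of the 6 motifs. TNFRSF21 held 1 GC box, and TNFSF15 held 1 AP-1 match and 1 TEAD match, which did not overlap. Of the windows searched but not printed, that of TNFSF9 held 3 matches (GC boxes and a TATA element). That of TNFSF10 held 1, a TATA element. G and C made up 38.8% of the TNFSF18 window and 62% of the TNFRSF21 window, against a median of 58% over all windows. A match is a string of letters in this window and shows no binding.

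Of the 10 members 8 lay above the filter, which left out the 40% of gene-level features with the lowest mean over all arrays (an intensity limit of about 107). TNFSF10 and TNFSF15 were below it. By limma at an adjusted p under 0.05, 2 members were higher in knockdown (TNFSF18 and TNFRSF21) and 2 lower (TNFRSF1A and TNFRSF12A), while 4 were not called. Over all 13207 features tested, 5.99% were called higher and 15.3% lower. Nothing is read from the members' count, since the choice of members used this contrast. The groups did not overlap in 8 of the 10 members, with the knockdown arrays above the controls in 2 and below them in 6, where 52.2% of all 22011 features had groups that did not overlap. The median difference of the 10 members on the log2(intensity + 16) scale was -0.17, and that of all features was -0.04.

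Among the ligands, TNFSF18 (transcript cluster 2444239), the ligand of the co-stimulatory receptor GITR, measured 218 and 203 in control cells, against 1869.8 and 1795 in α3 knockdown cells. Both knockdown arrays lay far above both controls, and the gap was many times the spread within either group. The mean intensity was 8.70-fold higher in knockdown, a log2 difference of 3.03 ± 0.083 (SE). Each of its 7 exon-level probesets, which read separate stretches of the transcript, lay above the exon-level filter and was higher in knockdown with no overlap. The controls of 1 of them, 2444246, lay below the exon-level limit of 96.2. Probeset 2444246 thus passed the filter only through its knockdown values, and its difference depends on the offset. The log2 differences of the 7 ran from 2.47 (probeset 2444246, 48.4 and 71.4 in the controls against 399.5 and 399.2 in knockdown) to 3.16 (probeset 2444245, 322 and 281 against 2839 and 2806). The difference was thus carried by all measured stretches of the gene and not by a single probeset.

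TNFSF15 (transcript cluster 3222128), a ligand of TNFRSF25 that is also known from endothelial cells, measured 98.4 and 92.9 in control cells, against 49.7 and 57.8 in α3 knockdown cells. The groups did not overlap, and the log2 difference was -0.68, but the gene was dim in every array. Only 1 of its 7 probesets lay above the exon-level filter, 3222129, and it did so through its control values, since both knockdown arrays lay below the limit of 96.2. It read 178 and 212 in control cells, against 46.3 and 84.2 in α3 knockdown cells. Among all 7 probesets the knockdown arrays were below the controls in 4, above them in 1 and overlapping in 2. The dim probesets 3222130, 3222131 and 3222133 were also lower without overlap, with differences of -0.65, -0.79 and -0.65. The median difference over the 7 probesets was -0.65, close to the gene-level value. In the fit without the filter TNFSF15 was among the 3 members called lower.

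TNFSF10 (transcript cluster 2705706) encodes the death ligand TRAIL. It measured 41.2 and 45.5 in control cells, against 35.7 and 35.2 in α3 knockdown cells, a log2 difference of -0.21 at a level below the filter. The exon-level picture was uneven. Probeset 2705708 was bright, at 1701 and 1829 in control cells, against 1981 and 2109 in α3 knockdown cells, and its log2 difference of 0.21 ± 0.123 (SE) ran opposite to the gene-level value. Probeset 2705730 measured 153 and 133 against 128 and 139. The other 10 of the 12 probesets were dim, and 2705712 among them read close to 0 in every array. The dim probesets 2705710, 2705713 and 2705725 were lower in knockdown without overlap (-0.80, -0.68 and -0.28), and 2705709 was higher (0.24). The gene-level value of TNFSF10 and its brightest probeset thus differed in sign.

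TNFSF9 (transcript cluster 3818468), the ligand of the T-cell co-stimulatory receptor TNFRSF9, measured 342 and 296 in control cells, against 306 and 350.3 in α3 knockdown cells. The groups overlapped, and the log2 difference of 0.04 ± 0.117 (SE) was smaller than its error. Of 8 probesets 5 lay above the filter, with 3 positive and 2 negative differences, from -0.64 (3818476) to 0.36 (3818475). In 3818475 a single array, knockdown replicate 1 at 313, stood above the others, which read 180.5 to 189. The bright probeset 3818474 read 1839 and 1358 in control cells, against 1651 and 1755 in α3 knockdown cells, again with overlap.

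CD70 (transcript cluster 3847989), the ligand of the lymphocyte receptor CD27, measured 315 and 334 in control cells, against 289.8 and 298 in α3 knockdown cells. The knockdown arrays were slightly lower without overlap, by a log2 difference of -0.14 ± 0.092 (SE). After quantile normalization of the arrays the difference was -0.022, and after centring on the array median it was -0.045. Its probesets did not share a direction. Probeset 3847994 read 619 and 516 against 406 and 384, while the brightest, 3848000, read 1317 and 1358 against 1327 and 1380.0. In 3847997 the array of knockdown replicate 2 stood alone at 735, with 251 in the other knockdown array and 289 and 285 in the controls. In 4 of the 5 CD70 probesets above the filter the groups overlapped.

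**Figure D1:**
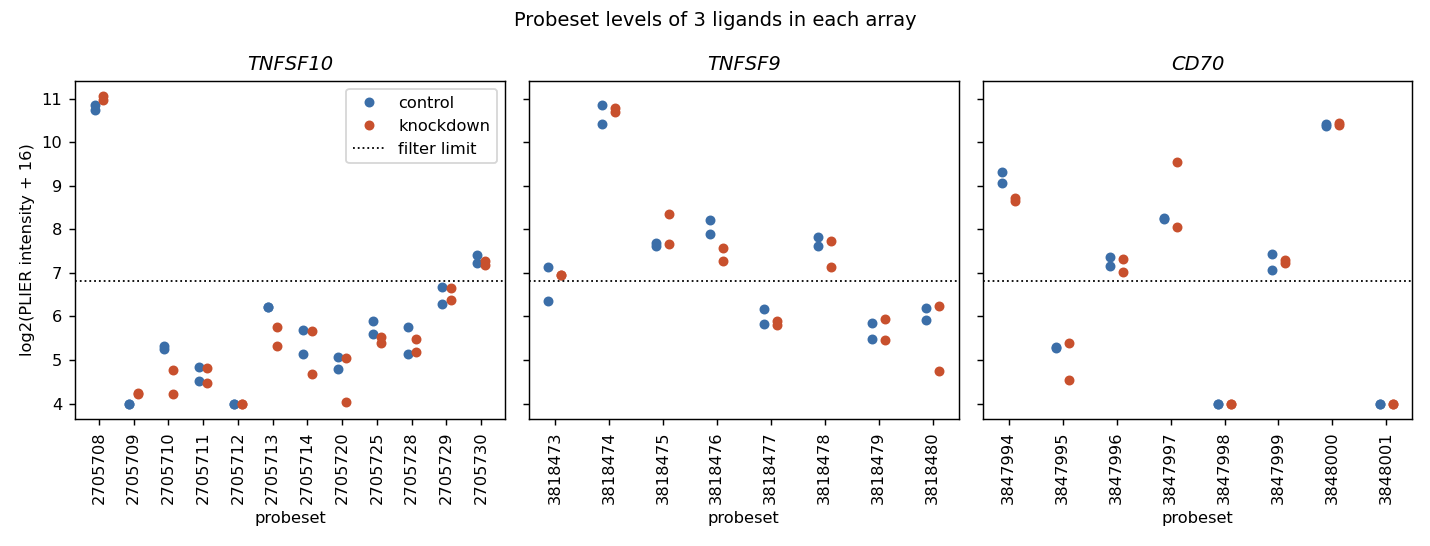
Level of each exon-level probeset of TNFSF10, TNFSF9 and CD70 in each array, as log2(PLIER intensity + 16), with controls in blue, knockdown arrays in orange and the filter limit dotted. Most of the 12 TNFSF10 probesets lie below the limit while 2705708 is bright, and knockdown replicate 2 stands apart in CD70 probeset 3847997.

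Among the receptors, TNFRSF1A (transcript cluster 3441849), the main signalling receptor for TNF in most cells, measured 1358 and 1548 in control cells, against 683 and 739 in α3 knockdown cells. Both knockdown arrays were at about the same level, far below the controls, with a log2 difference of -1.01 ± 0.095 (SE). The control mean was 2.04-fold that of knockdown. Of its 20 probesets 18 lay above the filter, all 18 with negative differences and without overlap, between -1.24 (3441852) and -0.59 (3441854). The brightest, 3441868, read 5278 and 4962 in control cells, against 2662 and 2503 in α3 knockdown cells. TNFRSF1A was thus lower along the whole measured transcript.

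TNFRSF21 (transcript cluster 2956052), the death-domain receptor DR6, which is known to bind the amyloid precursor protein APP, measured 1253 and 1247 in control cells, against 2222 and 2172 in α3 knockdown cells. The controls were nearly identical and both knockdown arrays lay above them. The mean was 1.76-fold higher in knockdown, a log2 difference of 0.81 ± 0.071 (SE). Of 18 probesets 17 lay above the filter, all with positive differences, and in 16 of these the groups did not overlap. The range was wide, from 0.05 (2956097, 541 and 544 against 614 and 515) to 1.30 (2956077, 604 and 582 against 1344 and 1642). The bright probeset 2956064 read 3035 and 2800.2 in control cells, against 5045 and 4689 in α3 knockdown cells.

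TNFRSF12A (transcript cluster 3645555), the receptor of the cytokine TWEAK, measured 1966 and 1830.4 in control cells, against 1500.4 and 1383 in α3 knockdown cells. The knockdown arrays lay below the controls without overlap, by a log2 difference of -0.39 ± 0.083 (SE). Of 5 probesets, all above the filter, 4 were lower without overlap, the strongest being 3645561 with 957 and 909 against 547 and 594. The fifth, 3645564, showed no difference in means, with 866 and 904 against 792 and 988. The gene-level call of TNFRSF12A as lower was lost after centring each array on its median (log2 difference -0.30). It was also lost without control replicate 1 (-0.34), knockdown replicate 1 (-0.45) or knockdown replicate 2 (-0.34).

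TNFRSF10D (transcript cluster 3127745), a decoy receptor for TNFSF10, measured 1974 and 2127 in control cells, against 1855 and 1603.5 in α3 knockdown cells. The groups did not overlap, but the knockdown arrays differed from each other by more than the controls did. The log2 difference was -0.25 ± 0.097 (SE), and the gene was not called. Of its 12 probesets 11 had negative differences, 10 of them without overlap. The exception was 3127762, with 895 and 616 in control cells, against 1475 and 794 in α3 knockdown cells. TNFRSF10D and TNFRSF10C are close paralogs, so a share of signal from the other copy is uncertain.

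TNFRSF11B (transcript cluster 3150455) encodes osteoprotegerin, a secreted decoy for TNFSF11 and TNFSF10. It measured 235 and 292 in control cells, against 282 and 278 in α3 knockdown cells. Both knockdown arrays lay between the controls, and the log2 difference was 0.09 ± 0.124 (SE). Its brightest probeset, 3150477, read 1449.6 and 1364 against 1458 and 1149.9, also with overlap, and in none of the 4 probesets above the filter were the groups apart.

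**Figure D2:**
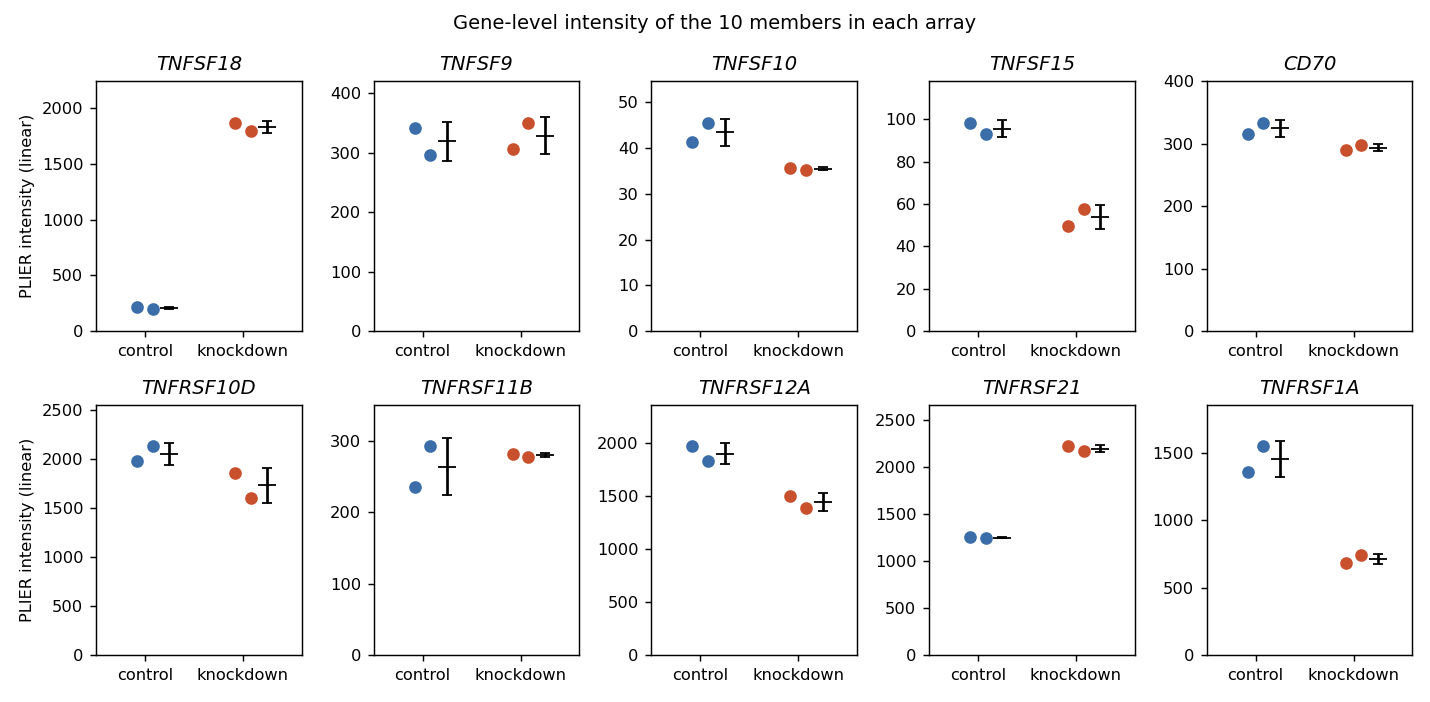
Gene-level PLIER intensity (linear axis from 0) of each member in the 2 control arrays (blue) and the 2 knockdown arrays (orange), with the mean and SD in black. TNFSF18 goes from near 211 to near 1832, TNFRSF21 is higher, TNFRSF1A and TNFRSF12A are lower, and TNFSF9 and TNFRSF11B overlap between groups.

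Over all members 106 probesets were read, between 5 (TNFRSF12A) and 20 (TNFRSF1A) per gene, and 76 lay above the exon-level filter. Of these, 20 were called higher (7 of TNFSF18 and 13 of TNFRSF21) and 18 lower (16 of TNFRSF1A and 1 each of TNFRSF12A and TNFSF15). Over all 172397 probesets tested, 1.33% were called higher and 3.25% lower, and the groups did not overlap in 50.7%. Nothing is read from the member counts here either, since the choice of members used this contrast. Among the called, 2444246 of TNFSF18 and 3222129 of TNFSF15 passed the filter only through the group where they are higher. Without the filter 6 member probesets were called higher and 0 lower by limma (22 and 29 at an unadjusted p under 0.05), and without the intensity trend 8 and 4. The probesets come from the same arrays as the gene-level values and are no further replicates.

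**Figure D3:**
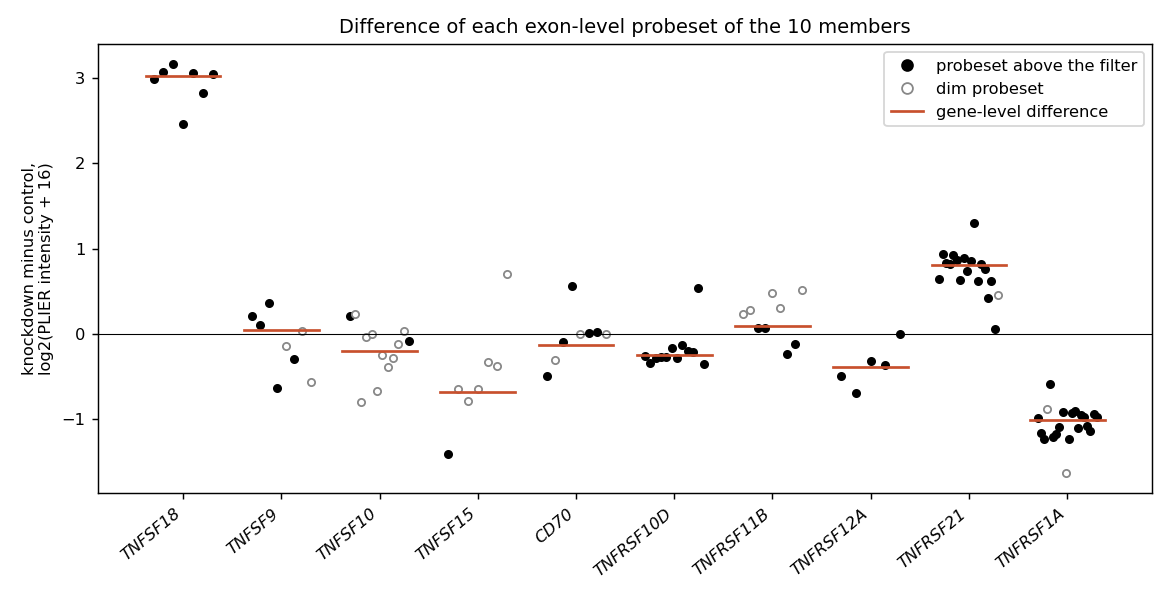
Difference between knockdown and control of each exon-level probeset, on the log2(PLIER intensity + 16) scale, by member, with filled points above the filter, open points dim, and the gene-level difference as an orange line. All TNFSF18 points lie between 2.47 and 3.16, and all TNFRSF1A points are below 0. TNFSF9, TNFSF10, TNFSF15, CD70, TNFRSF10D and TNFRSF11B have points clearly on both sides of 0.

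The other ligands and receptors of the superfamily were then compared. Of 9 other ligands measured at the gene level 2 lay above the filter, and of 21 other receptors 13 did. LTB, which encodes the membrane anchor of lymphotoxin, rose from 203 ± 7.55 to 343 ± 17.1 (log2 difference 0.71 ± 0.099 (SE), adjusted p = 0.00671, limma). TNFRSF1B, the other TNF receptor, rose from 153 ± 2.34 to 257 ± 31.7 (0.68 ± 0.121 (SE), adjusted p = 0.0134, limma), opposite to TNFRSF1A. TNFRSF9, the receptor of TNFSF9, rose from 102 ± 3.50 to 145 ± 4.15 (0.45 ± 0.116 (SE), adjusted p = 0.0399, limma). Both of its control values lay below the limit of about 107, so TNFRSF9 was tested only through its higher level in knockdown. Thus, among genes above the filter, 1 of 2 ligands and 2 of 13 receptors rose and 0 fell, beside 5.99% and 15.3% of all features. At an unadjusted p under 0.05 limma had 0 of these ligands and 1 of these receptors lower (LTBR). Dim genes were not tested. Among them FAS (95.3 ± 5.09 and 65.2 ± 3.21), EDA2R, TNFRSF13B, TNFSF11 and TNFSF13B were lower in knockdown without overlap. LTA, TNFRSF10C and TNFRSF13C were higher without overlap. Groups did not overlap in 52.2% of all gene-level features. The LTB call was lost without knockdown replicate 2 (adjusted p = 0.0589, limma), that of TNFRSF1B without knockdown replicate 1 (0.0847) and that of TNFRSF9 when any single array was left out (0.0712 to 0.215) or without the filter (0.0641).

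Binding partners of the members mostly did not pass. TNFRSF18, the receptor GITR for TNFSF18, measured 238 and 205 in control cells, against 235 and 229.7 in α3 knockdown cells (log2 difference 0.07 ± 0.113 (SE), adjusted p = 0.725, limma). The death receptors for TNFSF10 measured 868 ± 58.6 and 904 ± 1.43 for TNFRSF10A (adjusted p = 0.672, limma) and 1328 ± 49.1 and 1213 ± 15.3 for TNFRSF10B (adjusted p = 0.274, limma). TNF measured 39.1 ± 7.33 in the controls and 38.5 ± 8.16 in knockdown, LTA 80.6 ± 0.863 and 103 ± 10.1, TNFSF11 69.2 ± 11.3 and 55.6 ± 1.22 and the decoy TNFRSF10C 99.9 ± 1.19 and 109.9 ± 1.04, all below the filter. APP, a partner of TNFRSF21, fell from 4706 ± 91.6 to 3789.7 ± 217 (log2 difference -0.31, adjusted p = 0.0396, limma). The APP call did not hold when any single array was left out (0.0786 to 0.233), without the filter (0.0704) or the trend (0.0619), and after quantile normalization (0.0637) or centring (0.122). TNFSF12, CD27 and TNFRSF25 were read only at the exon level, where 1 of 4, 1 of 10 and 13 of 19 probesets lay above the filter and 0 were called by limma (0, 0 and 1 at an unadjusted p under 0.05).

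**Figure D4:**
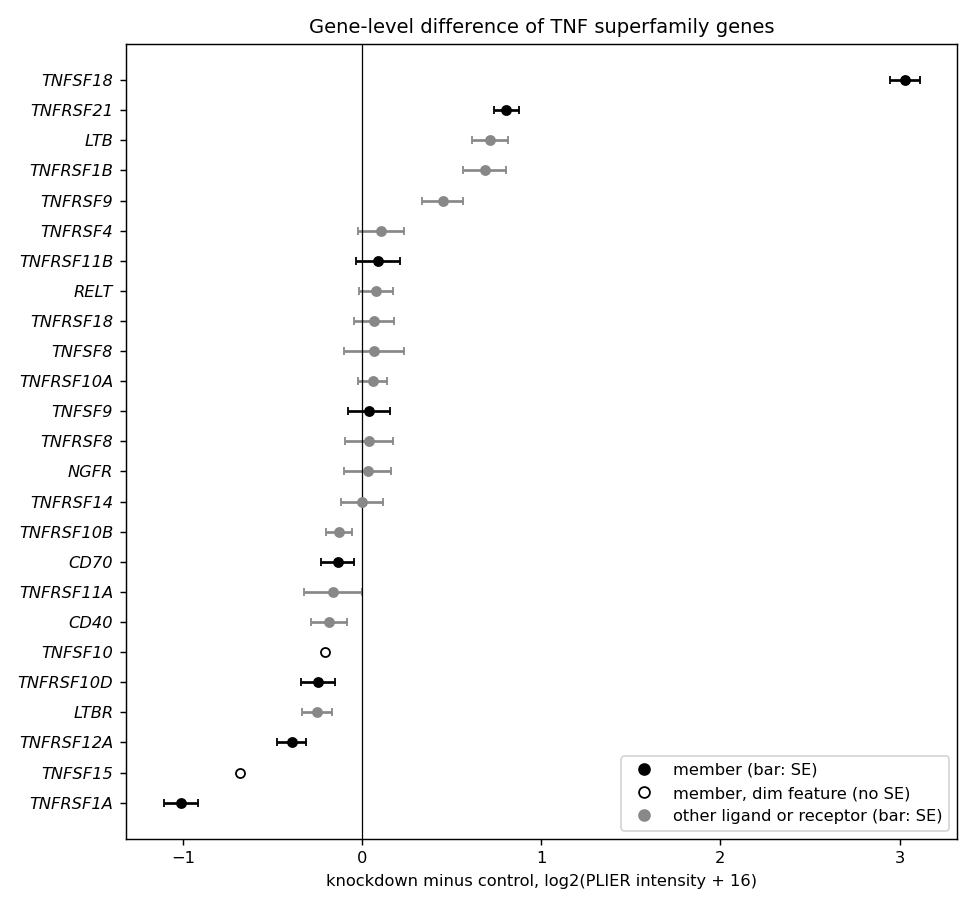
Gene-level difference between knockdown and control, on the log2(PLIER intensity + 16) scale, of the members (black; open where dim) and of the other ligands and receptors above the filter (grey), with SE bars. TNFSF18 stands at 3.03, followed by TNFRSF21 at 0.81 and LTB at 0.71, and TNFRSF1A is lowest at -1.01.

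Several members lie beside other superfamily genes on the chromosome, by RefSeq gene order. TNFSF18 lies between FASLG and TNFSF4 with 0 protein-coding genes in the gaps. FASLG measured 27.2 ± 8.42 in the controls and 28.3 ± 8.95 in knockdown, below the filter, and the 7 probesets of TNFSF4 were all dim. TNFSF15 adjoins TNFSF8, which had a control mean of 130.5 ± 0.731 and read 162 and 116 in α3 knockdown cells (log2 difference 0.07 ± 0.166 (SE), adjusted p = 0.824, limma). CD70 lies between TNFSF9 and TNFSF14, and TNFSF14 was dim at 95.7 ± 24.3 and 107.5 ± 9.49. TNFRSF1A and LTBR have 1 protein-coding gene between them. LTBR, the lymphotoxin β receptor, went from 1063 ± 84.2 to 889 ± 14.7 (-0.25 ± 0.086 (SE) on the log2 scale), short of the threshold (adjusted p = 0.0889, limma), though it passed without control replicate 1 (0.0488). None of these measured neighbours showed a called change in the fit with all 4 arrays.

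The genes with the most similar values to TNFSF18 over the 4 arrays, by the Euclidean distance between log2(intensity + 16) values after subtraction of the control mean, were TFF1 (distance 0.40), SCG2 (0.63) and SLC1A3 (0.91). The controls of TFF1 (61.2 and 47.2) and SCG2 (56.6 and 60.6) lay below the limit of about 107, so their differences depend on the offset of 16. For TNFRSF11B they were GNPNAT1 (0.021), FAM83H (0.022) and ACTR5 (0.027), which share with it a low control replicate 1 and similar knockdown arrays. The distance describes these 4 arrays only.

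Downstream of the receptors, adaptors and ubiquitin-editing proteins fell in 3 of 22 tested and rose in 0 (limma; 5 and 2 at an unadjusted p under 0.05), of 28 listed, with a list median of -0.09. TNIP1, which binds the NF-κB inhibitor protein TNFAIP3, fell from 1325 ± 33.6 to 762 ± 66.4 (log2 difference -0.79 ± 0.089 (SE), adjusted p = 0.00412, limma). RBCK1, a subunit of the linear ubiquitin ligase complex, fell from 578 ± 3.72 to 409 ± 3.16 (adjusted p = 0.0116, limma) and CYLD, a deubiquitinase of the TNF receptor complex, from 298 ± 55.7 to 200.2 ± 6.96 (adjusted p = 0.0444, limma). TNFAIP3 itself measured 589 ± 12.5 and 556 ± 5.67 (adjusted p = 0.533, limma), and the adaptors TRADD and FADD were not called. The RBCK1 call was lost without knockdown replicate 1 (0.0798) or 2 (0.0848), and that of CYLD without control replicate 2 (0.0984), knockdown replicate 1 (0.165) or 2 (0.141) or the filter (0.0919).

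Of the death machinery 14 of 18 listed genes were tested, of which 3 fell and 0 rose (limma; 6 and 1 at an unadjusted p under 0.05), with a median of -0.15. BAX, a pore-forming protein of the mitochondrial death pathway, fell from 833 ± 7.78 to 573 ± 9.56 (log2 difference -0.53 ± 0.077 (SE), adjusted p = 0.00766, limma). CASP6, an effector caspase, fell from 362 ± 18.4 to 232.5 ± 26.5 (adjusted p = 0.0155, limma) and XIAP, a caspase inhibitor, from 302 ± 42.0 to 193 ± 5.15 (adjusted p = 0.0209, limma). Those that fell thus include genes known to promote and to restrain cell death. CASP8, the initiator caspase of the death receptors, measured 394 ± 8.59 and 446 ± 27.8 (adjusted p = 0.238, limma), and its inhibitor CFLAR 519.9 ± 25.9 and 432 ± 9.97 (adjusted p = 0.0857, limma). The BAX call was lost without knockdown replicate 2 (0.0623), that of CASP6 without knockdown replicate 1 (0.0934), and that of XIAP without control replicate 2 (0.0524) or knockdown replicate 1 (0.0781) or 2 (0.113).

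Among 6 tested genes of ligand and receptor shedding, of 8 listed, 1 rose and 2 fell, with a median of -0.04. TIMP3, an inhibitor of the sheddase ADAM17, rose from 1850 ± 129 to 3417 ± 136 (log2 difference 0.88 ± 0.084 (SE), adjusted p = 0.00273, limma). The proprotein convertase FURIN fell from 203 ± 23.5 to 123 ± 16.8 (adjusted p = 0.0241, limma) and the intramembrane protease SPPL2A from 959 ± 65.8 to 766 ± 5.75 (adjusted p = 0.0428, limma). The FURIN call was lost without control replicate 2 (0.0783), knockdown replicate 1 (0.120) or 2 (0.0530) or the filter (0.0539). The SPPL2A call was lost without control replicate 1 (0.0941), knockdown replicate 1 (0.176) or 2 (0.215), the filter (0.0769) or the trend (0.0630) and after quantile normalization (0.104) or centring (0.127).

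TNF-induced targets moved in both directions. Of 16 tested genes, out of 22 listed, 3 rose, 4 fell and 9 did not pass (limma; 3 higher and 8 lower at an unadjusted p under 0.05), with a median of -0.14. PTX3, a secreted pattern recognition protein, rose from 2831 ± 7.47 to 6529 ± 273 (log2 difference 1.2 ± 0.076 (SE), adjusted p = 9.20e-04, limma) and the adhesion receptor gene ICAM1 from 422 ± 7.80 to 805 ± 43.3 (0.90 ± 0.084 (SE), adjusted p = 0.0025, limma). CXCL8, the neutrophil chemokine, fell from 2685 ± 36.6 to 1499 ± 77.7 (-0.83 ± 0.077 (SE), adjusted p = 0.00241, limma), and the monocyte chemokine gene CCL2 from 620 ± 46.9 to 29.8 ± 8.44 (-3.81 ± 0.157 (SE), adjusted p = 1.95e-04, limma). Both knockdown values of CCL2 lay below the limit of about 107, so it was tested only through its controls, and its log2 difference was -4.36 with an offset of 1 and -2.87 with an offset of 64. NFKBIA, the feedback inhibitor of NF-κB, was not called, at 1614 ± 61.9 and 1549 ± 3.65 (adjusted p = 0.638, limma). The other called targets were TNFAIP2, which rose from 649 ± 41.0 to 1012 ± 44.9 (adjusted p = 0.00655, limma), and CXCL2 and RELB. The chemokine gene CXCL2 fell from 560.3 ± 34.5 to 322 ± 25.3 (adjusted p = 0.00561, limma). RELB, an NF-κB subunit, fell from 284 ± 1.27 to 211 ± 15.3 (adjusted p = 0.0376, limma). The RELB call was lost when any single array was left out (0.0787 to 0.238), with median centring (0.0609) or quantile normalization (0.0661), and with no filter (0.0651), while the calls of the other 6 held in every alternative fit that tested them. TNFAIP3 and TRAF1 stand in both the adaptor and the target list. All of these list counts stand beside 5.99% higher and 15.3% lower over all features, and the median difference over all features tested was -0.06.

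**Figure D5:**
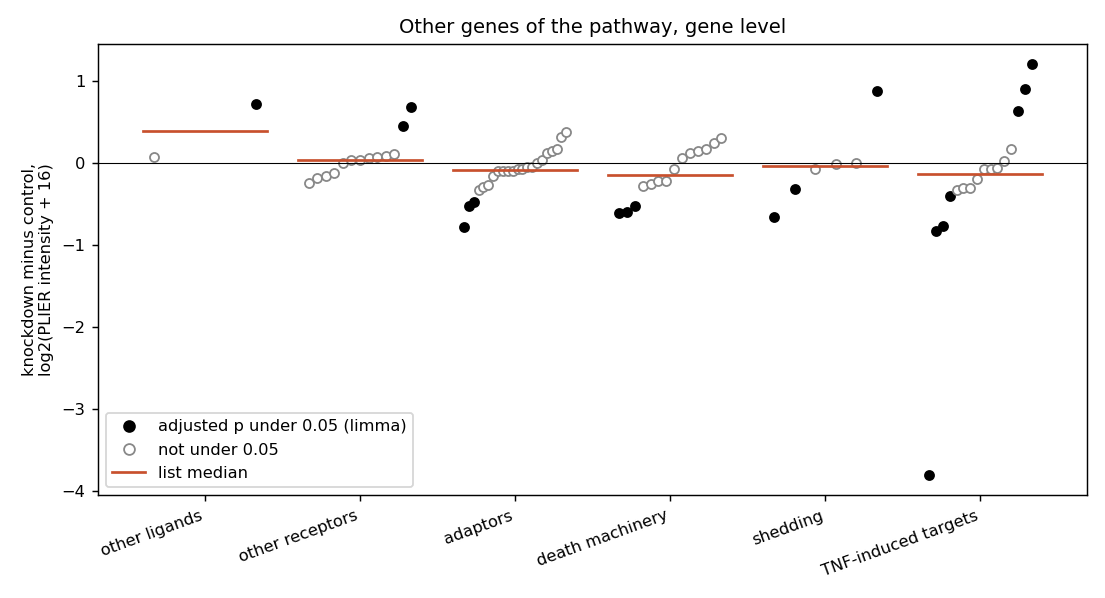
Gene-level difference between knockdown and control, on the log2(PLIER intensity + 16) scale, of each tested gene by list, with filled points where limma's adjusted p was under 0.05 and the list median in orange. The targets spread from -3.81 (CCL2) to 1.2 (PTX3), while most adaptors and death genes lie close to 0.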

How the data were processed

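The authors deposited PLIER intensity values on a linear scale, from Affymetrix Expression Console with core gene and core exon probesets, per the labels; no source used here gives the background correction or between-array normalization; the series' design text names the Exon Array Computational Tool. Features were named through the platform annotation with symbols updated through RefSeq, and only features with 1 symbol were named. Intensities were transformed as log2(value + 16), features in the lower 40% by mean over the 4 arrays were left out, and limma 3.58.1 (R 4.3.3) tested knockdown against control with no covariate (eBayes, trend on intensity, 2 residual degrees of freedom, Benjamini-Hochberg over all features, threshold 0.05, two-sided). The p-values measure only the spread between these samples. Fold changes on this log2 scale understate changes of dim genes. Where transcript clusters of a gene were several, the brightest was used. Named genes were the members, called superfamily genes, members' partners and chromosomal neighbours, and in the other lists up to 4 called genes with the smallest p. TNFAIP3, TRADD, FADD, NFKBIA, CASP8, CFLAR, TNFAIP2, CXCL2, RELB, VIM, CDH5, PTPRC, KRT18, EGFR and AXL were added after their values were seen. So were TIE1, KRT8, GATA3, FOXA1, ESR1, PGR, FAS, EDA2R, TNFRSF13B, TNFSF13B and TNFRSF13C. Members and lists were chosen with earlier results of these data known. The scripts were tested on simulated data. Alternatives were 2 other offsets (1 and 64), 2 other filters (none and the lower 60%), quantile normalization, median centring, no trend, a replicate block, leaving out each array, and exon-level medians. Plots used matplotlib 3.10.9 in Python 3.11.15.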

Additional observations from a re-analysis of the deposited data

How the results depend on the processing

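The direction of TNFSF18, TNFRSF21, TNFRSF1A, TNFRSF12A, TNFRSF10D and CD70 at the gene level was the same in every alternative fit that included them. These members were chosen on the same arrays, and their groups do not overlap. Another offset or the loss of 1 array therefore could not reverse them. The filter, trend and block settings leave the difference unchanged. Only quantile normalization and median centring could have reversed a direction. With offsets of 1 and 64 the log2 difference of TNFSF18 was 3.12 and 2.79, and with 64 that of TNFRSF21 was 0.783. After quantile normalization TNFSF18 was at 3.09, TNFRSF21 at 0.845 and CD70 at -0.022, with 1354 features called higher and 1679 lower. Adaptors then had 2 higher, death genes 1 higher and shedding genes 1 lower. After median centring TNFSF18 was at 3.12, TNFRSF21 at 0.897, CD70 at -0.045 and TNFRSF12A at -0.302, 1 member was called lower, and 1496 features were higher and 1507 lower (3508 probesets higher). Adaptors had 2 higher, death genes 1 higher and shedding genes 1 lower. The main split was 791 and 2016, or 28.2% higher, against 44.6% and 49.8% under the other scalings. Without the filter 485 features were higher, 43 probesets higher and 120 lower, 6 and 0 of them in members, 1 receptor was higher and 0 shedding genes were lower. With the lower 60% left out, 8805 features were tested, against 13207 in the main fit. Then 0 other ligands and 0 other receptors were higher, adaptors and death genes had 1 higher each, shedding had 1 lower and targets 2 lower. Without the intensity trend 379 probesets were higher and 1314 lower (8 and 4 in members), and 1 shedding gene was lower. As the median over exon-level probesets, TNFSF10 was at -0.101 and CD70 at 0.0.

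With the replicate block 1324 features were higher and 2741 lower, 10755 probesets higher and 18202 lower, and adaptors had 2 and death genes 1 higher. The deviations of arrays with the same number correlated at 0.29, but with 2 pairs the numbers are not shown to pair the samples.

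Leaving out 1 array each, counts ran from 166 to 909 higher and 632 to 1906 lower features, 753 to 2110 higher and 2161 to 3257 lower probesets, 1 to 2 members lower, 0 to 1 other ligands higher, 0 to 1 other receptors higher and 0 to 1 lower, 0 to 2 adaptors higher and 1 to 3 lower, 1 to 4 death genes lower and 0 to 1 shedding genes lower. TNFRSF18 then ran from -0.034 to 0.169, TNFRSF10A from -0.009 to 0.127 and TNFSF8 from -0.153 to 0.285, each changing sign without 1 array, as TNFRSF11B (-0.059 to 0.235) did. TNFSF9 (-0.060 to 0.141) changed sign without control replicate 2 and also without knockdown replicate 2. A group with 1 array left borrows the spread of the other group. The cause of these shifts was not tested. Every member had 1 transcript cluster, so the mean over clusters was not run. Dim features, TNFSF10 and TNFSF15 among them, have little signal over background.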
